A study of Mus musculus with 8 samples.

Results

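Olfactory receptors are the odorant-sensing G protein-coupled receptors of the nose, and Vmn1r and Vmn2r genes encode the pheromone receptors of the vomeronasal organ. A total of 106 such genes carried at least 40 expected counts over 8 RNA-seq libraries of mouse buffy coat, which is the layer of white cells and platelets in spun blood. They were 63 Olfr genes (58 named Olfr and a number, and 5 with a suffix after it, such as Olfr715b and Olfr839-ps1), 22 Vmn1r genes and 21 Vmn2r genes, of 1973 genes of these families and 35944 genes in all with a deposited transcript. Members were chosen by their counts summed over all 8 libraries, so that these genes had counts is the choice and not a finding. The families and the minimum were proposed with earlier results of these data known. Just inside the minimum lay Olfr1220 with 40.7 counts, Vmn1r233 with 40.14 and Vmn1r201 with 40.08, and just outside lay Olfr398 with 38.47, Olfr1277 with 38.37 and Olfr975 with 37.84.

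The mice had been exposed to PM2.5 (fine airborne particulate matter; libraries 9, 17, 18 and 21) or, as controls, to phosphate-buffered saline (PBS; libraries 4, 10, 12 and 16), over 24 weeks in both groups. The labels give no strain, sex, age or route of exposure, and leave unsaid whether each library is its own animal, so the p-values reflect how far the 4 libraries of a group differ, which may be technical. Libraries were random-primed from total RNA and strand-marked, per the labels' protocols.

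In the nose, an olfactory sensory neuron is known to express 1 receptor gene, a rule that neurons with Vmn2r receptors do not keep strictly. Odorant receptors signal through the G protein alpha subunit Gnal, the adenylyl cyclase Adcy3 and the cyclic nucleotide-gated channel Cnga2, while vomeronasal receptors use the channel Trpc2, with Gnai2 beside Vmn1r and Gnao1 beside Vmn2r receptors. An olfactory receptor's coding sequence usually lies in 1 exon. The annotation holds short transcripts of little more than that exon and, for many receptor genes, longer ones with upstream exons and an extended 3′ untranslated region (UTR).

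The counts lay on the long annotated isoforms. Of the 1973 receptor genes, 1690 had no count in any library and 283 had at least some, and the 106 genes held 56902.8 of the 58375.5 receptor counts (97.5%). The most counted transcript of each gene held 99.1% of the 106 genes' counts, and in 87 genes it held all of them. That transcript had a median length of 5367 bases (910 to 21388), was over 2000 bases in 103 of 106 genes, and was the gene's longest in 50. In the 86 genes where it carried a coding sequence, that sequence had a median of 939 bases, beside a 3′ UTR with a median of 4023 bases, and a median of 81.4% of the transcript lay outside the coding sequence. By annotated type 81 of the most counted transcripts were protein coding, 15 processed transcripts, 5 targets of nonsense-mediated decay, 4 retained introns and 1 an unprocessed pseudogene.

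Transcripts of up to 1100 bases, the largest length class with 1718 receptor transcripts, had counts in 18 and held 0.163% of all receptor counts. The 596 transcripts of 1101 to 2000 bases held 1.31%, the 1242 of 2001 to 4000 bases 19.7%, the 793 of 4001 to 8000 bases 41.4%, and the 218 longer than 8000 bases 37.4%. Of the 106 genes, 72 also had an annotated transcript with at most 200 bases outside the coding sequence. In 71 of the 72 that transcript was listed at 0, and Olfr629-201, the exception, had 39.13 counts, which is 0.0908% of the 43093 counts of those 72 genes. A 0 here is the authors' division of reads between isoforms that share the coding exon, so it does not measure reads over the coding sequence.

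**Figure D1:**
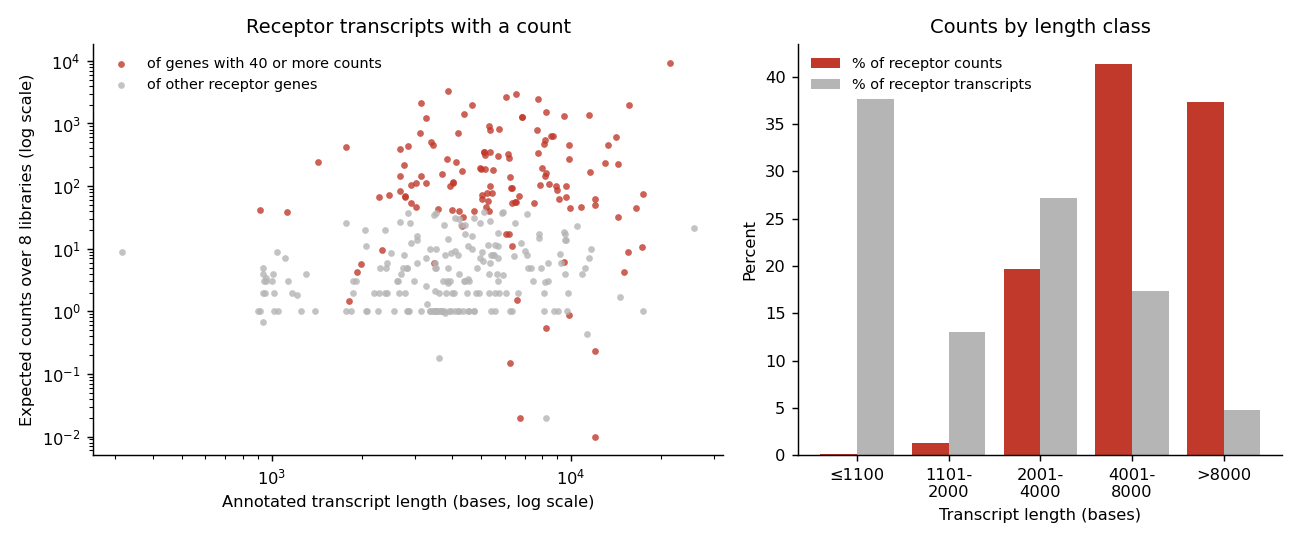
Left, each receptor transcript with a count by its annotated length (bases, log scale) and its expected counts over 8 libraries (log scale), in red for transcripts of the 106 genes with at least 40 counts and in grey for other receptor genes. Right, the percent of all receptor counts (red) and of all receptor transcripts (grey) in 5 length classes: transcripts of up to 1100 bases held 0.163% of the counts, and those longer than 8000 bases held 37.4%.

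Vmn2r53 on the reverse strand of chromosome 7 (GRCm38 chr7:12562851-12608788) was the most counted receptor gene. All of its 9355.66 counts were on Vmn2r53-203, a transcript of 21388 bases in 6 exons with 2637 coding bases and 18619 bases of 3′ UTR. Its coding-only transcript Vmn2r53-201 (2421 bases) and the still longer Vmn2r53-202 (22143 bases, annotated as a target of nonsense-mediated decay) were both listed at 0. Among olfactory receptors, Olfr639 (chr7:104006231-104017303, reverse strand) had 2963.32 counts on Olfr639-202 (6570 bases) and 0 on the 1020-base Olfr639-201. Olfr1247 (chr2:89604959-89614119, reverse strand) had 2620.84 counts on the 6070-base Olfr1247-202 and 0 on the 945-base Olfr1247-201, which is the coding sequence alone. Olfr1307-201, which took all 1966.56 counts of Olfr1307, spans 15582 bases, of which 939 are coding.

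The longest isoform was not always the counted one. Olfr365-202 (5333 bases) held 910.15 counts, while Olfr365-203 (5374 bases, with a 3′ UTR of the same length) was listed at 0. Counts were divided in 19 genes, and in 8 of them the leading transcript held under 90%. Olfr107 was such a case, with 116.94 counts on Olfr107-205 (4021 bases) and 99.28 on Olfr107-203 (3954 bases). Vmn2r60 had its 237.92 counts on Vmn2r60-202, a processed transcript of 12956 bases with no coding sequence, and none on its coding transcripts Vmn2r60-201 and Vmn2r60-203. The counted transcript overlapped an annotated exon of another gene in 15 of 106 genes. In 1 of these the other gene also had 40 or more counts: the retained-intron transcript Olfr56-205 shares 111 bases on the same strand with Ifi47, an interferon-induced GTPase gene with 1394 counts, so the counts of Olfr56 are uncertain. For Olfr374, Olfr715, Vmn1r203 and Olfr31 the overlapping gene had no listed count, so its level is unknown.

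The counted transcripts also shared sequence with other genes, and differed in this from uncounted ones mainly outside the coding sequence. Of all 30-base words in the counted transcript, the 106 genes had a median of 19.0% that also occur, on either strand, in an annotated transcript of another gene. The longest transcripts of 879 receptor genes with no count and an isoform over 2000 bases had a median of 8.68%. Where the transcript had a coding sequence, the medians within it were 26.1% in 86 of the 106 genes and 25.2% in 804 of the 879. Outside it, the medians were 17.3% (86 genes) and 2.11% (795 genes). The medians outside the coding sequence were 19.0% and 2.09% among transcripts of 2001 to 4000 bases (18 and 528 genes with a value), 17.4% and 1.99% at 4001 to 8000 bases (46 and 245 genes), and 16% and 6.64% above 8000 bases (20 and 22 genes). Some uncounted transcripts exceeded every counted one, as the plot of shared words shows. Counts of genes that share sequence are uncertain, since reads from such stretches can be assigned to any of them.

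**Figure D2:**
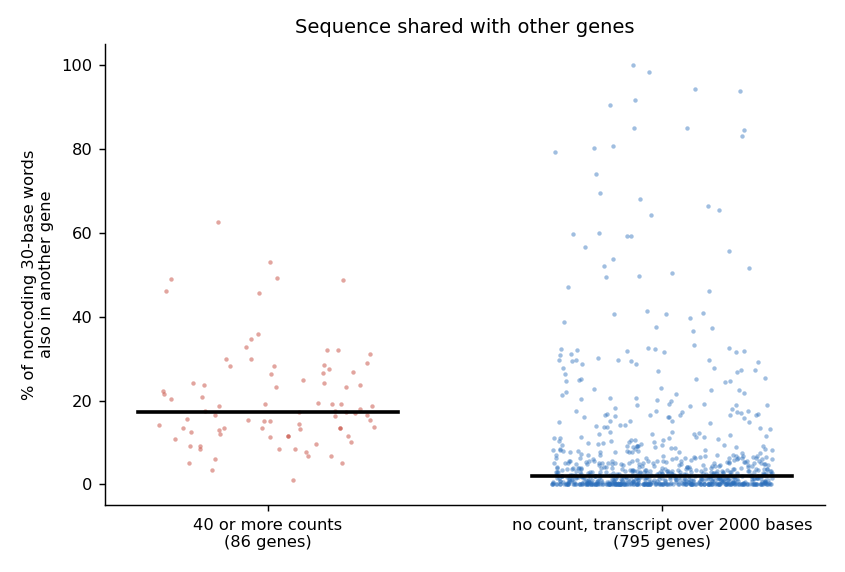
Percent of the 30-base words outside the coding sequence that also occur in an annotated transcript of another gene, 1 point per gene, with horizontal jitter and a black line at the median, for 86 receptor genes with at least 40 counts (red) and 795 with no count and a transcript over 2000 bases (blue), leaving out transcripts without a coding sequence or without bases outside it. The medians are 17.3% and 2.11%.

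The most widely shared words are given here because they join transcripts of receptor genes on different chromosomes. They were picked as words common to the counted transcripts, so how often they occur there is a description with no test. All lie in the 3′ UTR of the example transcript, are taken from GENCODE M21 transcripts in the 5′ to 3′ direction of that transcript, and have in capitals the 16 bases within the word that occur in the greatest number of the 106 genes.
Word 1 (Vmn2r53, chr7:12572378-12572407, reverse strand): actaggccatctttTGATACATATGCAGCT
Word 2 (Olfr715b, chr7:107103768-107103797, reverse strand): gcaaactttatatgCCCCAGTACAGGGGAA
Word 3 (Olfr1247, chr2:89608063-89608092, reverse strand): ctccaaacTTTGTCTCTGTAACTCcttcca
Word 4 (Olfr1247, chr2:89608165-89608194, reverse strand): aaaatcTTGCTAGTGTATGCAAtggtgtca
Word 5 (Vmn2r53, chr7:12571804-12571833, reverse strand): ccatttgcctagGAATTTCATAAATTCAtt
Word 6 (Vmn2r53, chr7:12578840-12578869, reverse strand): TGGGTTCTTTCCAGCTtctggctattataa

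Word 1 occurred, on either strand, in the counted transcripts of 29 of the 106 genes (27.4%), in 4 of the 879 uncounted ones (0.455%) and in 95 of 55450 annotated genes (0.171%). Its 16-base core occurred in 40 of the 106. Word 2 occurred in 28 of the 106 genes, 8 of the 879 and 136 of all genes. Word 3, whose core was the most widespread of the 6 cores (48 of 106 genes), occurred in 25 of the 106 genes, none of the 879 and 72 of all genes. Words 4, 5 and 6 occurred in 24, 23 and 22 of the 106 genes. With 2 more words of the same kind, 68 of the 106 genes (64.2%) and 14 of the 879 (1.59%) held at least 1 of 8. The words stood in both orientations: word 1 ran with the transcript in 13 genes and against it in 16. Receptor gene clusters are known to be rich in transposable elements, but no repeat annotation was used here.

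Levels per length were low: 9 of the 106 genes reached 1 FPKM in any library, the highest value of any was 2.28 FPKM, and 44 stayed under 0.1 FPKM in all 8. The 4 main haemoglobin genes took 86.7% to 88.6% of the counts in PM2.5 libraries and 82.4% to 87.9% in PBS libraries (exact permutation test, two-sided p = 0.143). The counts left for other genes were 9615114 to 11008270 per PM2.5 library and 10739154 to 12714423 per PBS library. Markers of platelets, neutrophils, monocytes, B, T and natural killer cells were all counted. Camk2a, a kinase of forebrain neurons, had 78 and 97 counts in libraries 17 and 18 and 0 to 4 in each other library. Their TMM scaling factors were 0.644 and 0.638, against 0.832 to 1.52 in the others. Over all genes they did not form a pair apart: chi-square per degree of freedom was 25.8 between them. Against PBS library 12 it was 24.2 for library 17 and 17.2 for library 18. Results that rest on libraries 17 and 18 are given with and without them.

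With PM2.5, 17 of the 77 receptor genes that passed the filter on low counts fell at an adjusted p under 0.05 (edgeR's quasi-likelihood test, Benjamini-Hochberg over all 10361 genes tested), where 1.14% of all genes did, and 1, Vmn2r60, rose, where 0.463% did. Together these were 18 of 77, against 1.6% of all genes in either direction. The fall was called in few or no receptor genes under some settings, where lower calls over all genes were fewer as well. It was called in 5 without PBS library 10 (25 of all 10529 genes lower). It was called in 1 (Olfr639) without PM2.5 libraries 17 and 18 (3 of 11137) or with the haemoglobin share as a covariate (3 of 10361). By limma on FPKM (43 at an unadjusted p under 0.05) or in edgeR over single transcripts (34 unadjusted) it was called in none, as was any other gene or transcript. The 17 comprised 12 of 47 tested Olfr, 3 of 16 Vmn1r and 2 of 14 Vmn2r genes, with log2 fold changes of -1.74 to -0.71. The other 59 tested genes did not pass, and 29, with totals of 40.08 to 104.61 counts, were below the filter. Without the filter all 106 entered the fit: 26 were lower and 2 higher past the threshold, against 1.72% and 1.74% of 18035 genes. That fit took in every gene with a count, without the minimum of 40, so its 18035 genes are not matched to the 106 in counts. In that fit 93 of the 106 log2 fold changes were below 0, with a median of -0.76, and 8332 of all 18035 (46.2%), with a median of 0.06. Every PM2.5 library was below every PBS library in 36 of the 106 genes, where 4.23% of the 18035 genes showed this. Among genes past the filter it was 32 of 77, against 6.64% of 10361. The reverse held in 1 of the 106 genes, Olfr1372-ps1, against 2.12% of the 18035. The filter bears on the 32 of 77, since a gene can pass it through 1 group alone, as Vmn2r124 and Vmn1r72 did through PBS. Fewer cells with these transcripts, less in each cell, or reads of shared sequence from other genes cannot be told apart here.

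**Figure D3:**
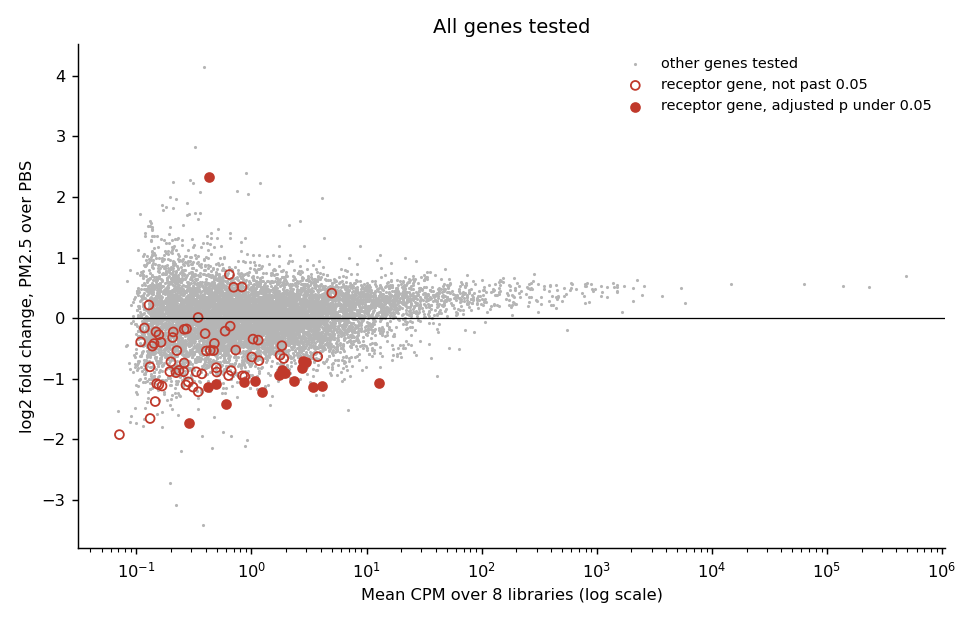
Log2 fold change of PM2.5 over PBS against mean CPM over 8 libraries (log scale) for the 10361 genes tested, in grey, with the 77 tested receptor genes in red, filled where the adjusted p is under 0.05. The filled points are the 17 receptor genes below 0 and Vmn2r60 at 2.33.

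Vmn2r53, the most counted, was at 7.54, 9.31, 8.29 and 8.22 CPM (TMM-scaled) in PM2.5 libraries 9, 17, 18 and 21, against 20.3, 18.4, 15 and 16.4 CPM in PBS libraries 4, 10, 12 and 16. All PM2.5 libraries lay below all PBS libraries, and the log2 fold change was -1.07 (SE 0.168, adjusted p = 0.0068). Vmn2r genes encode receptors with a large extracellular ligand-binding domain, found in the basal neurons of the vomeronasal organ. Vmn2r114 (chromosome 17) was at 1.23, 1.80, 1.79 and 1.39 CPM in the same PM2.5 libraries and at 4.12, 3.0, 2.51 and 3.02 CPM in the PBS libraries. The groups did not overlap (log2 fold change -1.04, SE 0.188, adjusted p = 0.0118). Of its counts, 1536.98 were on the 8228-base coding transcript and 165.78 on an 11539-base transcript annotated as a target of nonsense-mediated decay.

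Among the olfactory receptors, Olfr639 had 2.30, 3.15, 2.26 and 2.59 CPM in PM2.5 libraries and 6.26, 6.07, 4.89 and 5.17 CPM in PBS libraries. The highest PM2.5 library was well below the lowest PBS library (log2 fold change -1.12, SE 0.161, adjusted p = 0.00386, the smallest of the 106 genes). Olfr839-ps1, named as a pseudogene but annotated with a coding transcript of 7759 bases, had 2.05, 2.20, 2.15 and 2.17 CPM with PM2.5 and 5.87, 5.02, 4.28 and 3.64 CPM with PBS. Its PM2.5 libraries were nearly alike (2.14 ± 0.0634, SD, n = 4), its PBS libraries more spread (4.70 ± 0.960, n = 4), and it fell by 1.13 on the log2 scale (SE 0.166, adjusted p = 0.00429). Olfr1250 (chromosome 2) had 1.15, 1.56, 1.44 and 1.33 CPM with PM2.5 and 2.75, 2.71, 2.28 and 2.43 CPM with PBS, again without overlap (log2 fold change -0.90, SE 0.162, adjusted p = 0.0118). These 3 genes, Vmn2r53 and Vmn2r114 were the 5 that kept their call in all 8 fits with 1 library removed (adjusted p = 0.00152 to 0.0437 over the 5 genes).

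Olfr365 (chromosome 2) was at 0.971, 0.861, 0.629 and 0.511 CPM with PM2.5 and at 1.74, 2.10, 1.31 and 1.78 CPM with PBS. It fell by 1.23 on the log2 scale (SE 0.224, adjusted p = 0.0122) and lost the call only without PBS library 10 (adjusted p = 0.0595). Olfr107 (chromosome 17), in the receptor cluster next to the major histocompatibility complex, was at 0.0996, 0.0733, 0.0555 and 0.273 CPM with PM2.5 and at 0.466, 0.448, 0.459 and 0.409 CPM with PBS. PM2.5 library 21 was nearest to the PBS libraries, and the log2 fold change of -1.74 (SE 0.410, adjusted p = 0.0425) was -2.48 without it. It passed without that library (adjusted p = 0.0119) and lost its call without any of the other 7. Olfr344 had 0.700 ± 0.0419 CPM with PM2.5 and 1.43 ± 0.427 CPM with PBS (SD, n = 4 each; log2 fold change -1.03), and Olfr986 had 1.19 ± 0.273 and 2.28 ± 0.394 CPM (-0.94). Olfr1385, counted on a processed transcript of 3155 bases, had 2.23 ± 0.416 CPM with PM2.5 and 3.73 ± 0.411 CPM with PBS (-0.73). The remaining calls among olfactory receptors were Olfr1307 (-0.71), Olfr338 (-1.13), Olfr635 (-1.05) and Olfr613 (-1.08). With single libraries left out, Olfr338 and Olfr613 lost the call in 7 of 8 fits, Olfr344, Olfr1385 and Olfr1307 in 5, Olfr986 in 4 and Olfr635 in 2 (without PM2.5 library 18 or PBS library 10). Olfr1247 missed the threshold although its groups did not overlap, at 2.49, 3.30, 3.39 and 2.65 CPM with PM2.5 and 5.21, 4.72, 4.58 and 3.82 CPM with PBS (log2 fold change -0.64, SE 0.161, adjusted p = 0.0554).

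**Figure D4:**
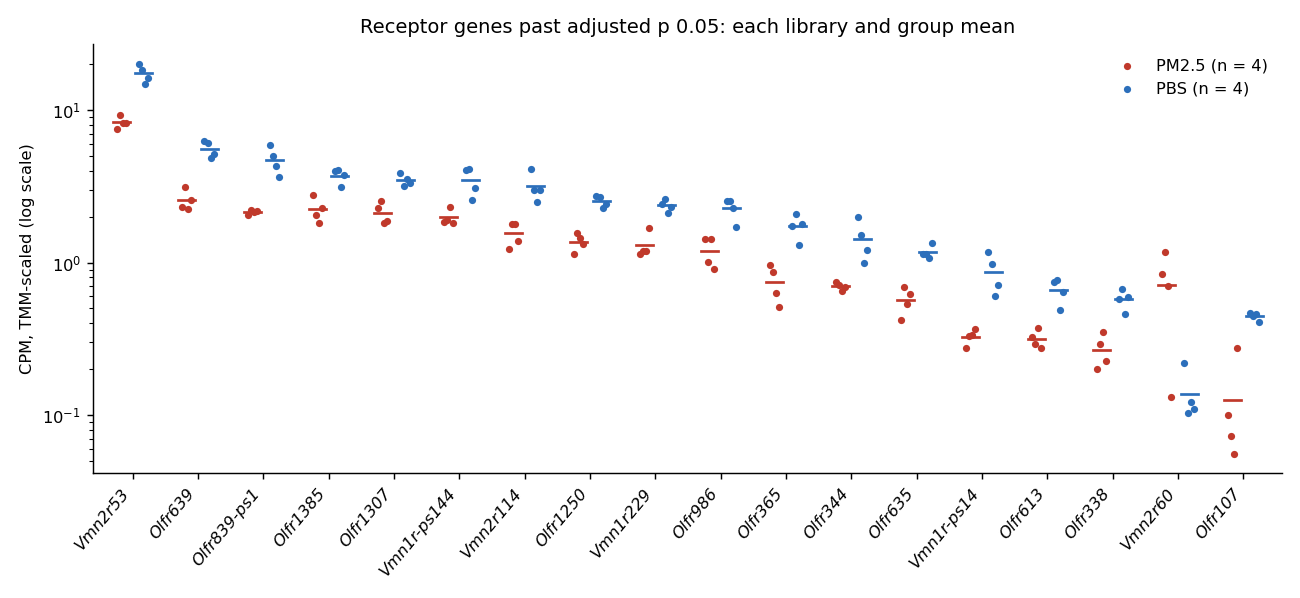
CPM (TMM-scaled, log scale) of the 18 receptor genes past an adjusted p of 0.05, ordered by total counts, with 1 point per library and a bar at the group mean, PM2.5 (red, n = 4) left of PBS (blue, n = 4). The groups do not overlap in the 17 genes that fell, while in Vmn2r60 PM2.5 library 21 (0.131 CPM) lies within the PBS range.

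Vmn1r genes encode the small vomeronasal receptors of apical neurons, and 3 of them fell. Vmn1r-ps14 (chromosome 6), counted on a single-exon processed transcript of 3452 bases, was at 0.274, 0.330, 0.333 and 0.368 CPM with PM2.5 and at 1.18, 0.979, 0.608 and 0.718 CPM with PBS. Its log2 fold change was -1.42 (SE 0.265, adjusted p = 0.0138; 0.0552 without PBS library 10). Vmn1r229 (chromosome 17) was at 1.15, 1.19, 1.18 and 1.70 CPM with PM2.5, against 2.44, 2.61, 2.12 and 2.33 CPM with PBS (log2 fold change -0.86, SE 0.174, adjusted p = 0.0207). PM2.5 library 21 stood above the other 3, and the call was lost without PM2.5 library 17, PM2.5 library 18 or PBS library 10. Vmn1r-ps144, also on chromosome 17, had 1.98 ± 0.236 CPM with PM2.5 and 3.48 ± 0.761 CPM with PBS (SD, n = 4 each; log2 fold change -0.82, adjusted p = 0.0281), and lost its call in 4 of 8 fits with 1 library left out. Vmn1r76 (-0.87, adjusted p = 0.0783), Vmn1r81 (-0.95, 0.0641) and Vmn2r115 (-0.95, 0.0953) missed the threshold with groups that did not overlap. Vmn2r1, which belongs to the Vmn2r genes known to be expressed broadly beside other receptors in basal neurons, was at 1.55 ± 0.237 CPM with PM2.5 and 2.13 ± 0.304 CPM with PBS, with overlapping groups (-0.46, adjusted p = 0.189). The 3 lowest fold changes outside the calls belonged to scarcely counted genes: Vmn2r124 (-1.92, SE 0.598, adjusted p = 0.114), Vmn1r72 (-1.66, SE 0.541, 0.129) and Olfr893 (-1.38, SE 0.564, 0.218). Vmn2r124 (9.21 to 12.94 counts with PBS, 1.08 to 4.17 with PM2.5) and Vmn1r72 passed the filter on low counts through their PBS libraries alone.

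Vmn2r60 was the single receptor gene that rose among those past the filter. It was at 0.846, 1.17, 0.703 and 0.131 CPM in PM2.5 libraries 9, 17, 18 and 21, against 0.220, 0.103, 0.122 and 0.109 CPM in PBS libraries 4, 10, 12 and 16. Behind these values stood 68.02, 64, 38.01 and 10.99 counts with PM2.5 and 24.07, 11.17, 9.34 and 12.32 counts with PBS. PM2.5 library 21 was at the level of the PBS libraries, and the other 3 were above all of them. The log2 fold change was 2.33 (SE 0.484, adjusted p = 0.0236). It lost its call without PM2.5 library 17 (adjusted p = 0.0919), PM2.5 library 18 (0.0591) or PBS library 10 (0.115), and without libraries 17 and 18 together it was 1.82 (adjusted p = 0.27), so library 9 alone then stood high.

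Of the 77 tested genes 6 more had fold changes above 0, and none of the 6 passed. Olfr715b, the second most counted of the 106 genes, was at 6.70, 4.43, 6.77 and 4.89 CPM with PM2.5 and at 5.41, 4.69, 4.25 and 2.79 CPM with PBS. The groups overlapped (log2 fold change 0.41, SE 0.201, adjusted p = 0.29), and with library totals in place of TMM the value was -0.16. Olfr1284 was at 0.72 (SE 0.294, adjusted p = 0.218). Olfr1372-ps1 was at 0.51 (adjusted p = 0.245), with groups that did not overlap (0.736 to 0.962 CPM with PM2.5 and 0.448 to 0.702 CPM with PBS). Vmn2r108 was at 0.51 (adjusted p = 0.278), with overlapping groups. With library totals they were at -0.05 and -0.03, in that order. With that scaling the median of all genes past the filter was -0.52, in place of 0.04. That of the 77 receptor genes past it was -1.34, in place of -0.74.

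Summed over the 106 genes, the level was 62.6, 63.2, 62.1 and 57.8 CPM in PM2.5 libraries 9, 17, 18 and 21, and 111, 109, 88.8 and 89.1 CPM in PBS libraries 4, 10, 12 and 16. The means were 61.4 ± 2.45 and 99.5 ± 12.2 CPM (SD, n = 4 each), with no test because the genes were chosen with earlier results known. Without Vmn2r53 they were 53.1 ± 2.41 and 81.9 ± 10 CPM. The number of receptor genes with any count was 152 to 157 per PM2.5 library and 169 to 194 per PBS library, at unequal depth. With each library left out in turn, 5 to 16 receptor genes were called lower, while calls over all genes moved as well. There were 5 without PBS library 10, where 25 of 10529 genes (0.237%) were lower, and 9 without PM2.5 library 17 (39 of 10683, 0.365%), PM2.5 library 18 (39 of 10693) or PBS library 4 (66 of 10478, 0.63%). There were 11 without PM2.5 library 21 (52 of 10632), and 16 without PBS library 16 (134 of 10525, 1.27%). Without PM2.5 libraries 17 and 18 together, Olfr639 (-1.19, adjusted p = 0.0284) was the single receptor call among 3 lower genes of 11137. In that fit 82 of 95 tested receptor genes were below 0, with a median of -0.77. With the haemoglobin share as a covariate, Olfr639 (-1.04, adjusted p = 0.0449) was again the single receptor call, among 3 lower genes of 10361. There 68 of 77 receptor genes were below 0, with a median of -0.65, against -0.74 without the covariate. The 95 and 77 genes are those past the filter on low counts, which a gene can pass through the libraries of 1 group alone. The filter thus bears on these directions, and the fit of all 106 genes without it is given above.

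**Figure D5:**
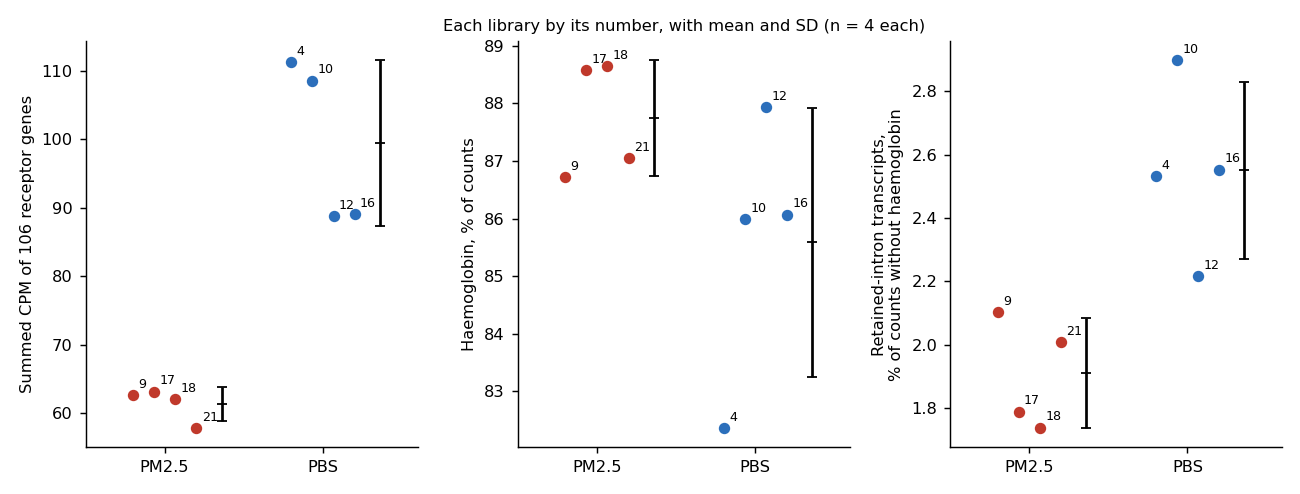
For each library, labelled by its number, the summed CPM of the 106 receptor genes (left), the haemoglobin percent of all counts (middle) and the percent of counts without haemoglobin that lie on annotated retained-intron transcripts (right), PM2.5 (red) left of PBS (blue), with the mean and SD (n = 4 each) beside the points. Axes do not start at 0. The groups do not overlap in the left and right panels and overlap in the middle one.

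Other measures moved with these groups. Transcripts annotated as retained introns took 1.74% to 2.10% of the counts without haemoglobin in PM2.5 libraries and 2.22% to 2.90% in PBS libraries, a measure chosen after its values were seen. The summed level of 8 B cell genes was 32.7 to 42.4 CPM in PM2.5 libraries and 39.7 to 64.2 CPM in PBS libraries, with 3 of the 8 lower (Ebf1, Blk and Bank1) and none higher. The summed level of 6 neutrophil genes was 27.0 to 52.9 CPM in PM2.5 libraries and 13.3 to 26.7 CPM in PBS libraries, without overlap, and 3 of the 6 rose: S100a8 (log2 fold change 1.19), Mmp9 (1.19) and Cxcr2 (0.94). Of 5 monocyte genes, which summed to 96.3 to 139 CPM with PM2.5 and 72.1 to 103 CPM with PBS, Ccr2 rose (1.99, adjusted p = 0.0029). Of 3 natural killer cell genes, which summed to 1.88 to 3.81 CPM with PM2.5 and 1.55 to 2.35 CPM with PBS, Ncr1 rose (1.40, adjusted p = 0.0481). No gene passed among 5 platelet genes (445 to 742 CPM with PM2.5 and 371 to 652 CPM with PBS) or 5 T cell genes (7.10 to 9.86 and 4.85 to 8.28 CPM). Haemoglobin shares are given above. Their part in the receptor results was not tested beyond the covariate.

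Over the 77 tested genes, Spearman's rho of the fold change was 0.14 with the share of words found in other genes, -0.12 with transcript length and 0.28 with GC content. These values are a description, with no test, over genes that share libraries and sequence. Of the 17 genes called lower 16 held at least 1 of the 8 shared words, of the 59 tested without a call 37 did, and of the 29 below the filter 14 did. The genes called lower were also the better counted ones, with a median total of 1326 counts, against 229 in those tested without a call.

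The 106 genes lay on 12 chromosomes, 28 of them on chromosome 7, 20 on 17 and 17 on 2. On chromosome 17 they were 20 of 139 receptor genes (14.4%), on chromosome 7 they were 28 of 533 (5.25%). A receptor cluster surrounds the beta-globin genes Hbb-bs and Hbb-bt (chr7:103812524-103828096), whose transcripts dominate these libraries. Within 500 kb of them lay 60 receptor genes, 45 without a count and 6 among the 106. The nearest, Olfr629 at 68.0 kb, was at 0.133 ± 0.0884 CPM with PM2.5 and 0.164 ± 0.0818 CPM with PBS (SD, n = 4 each; log2 fold change -0.23, adjusted p = 0.851, 0.21 with the haemoglobin share as a covariate). Olfr624 at 141 kb did not pass (-0.70, adjusted p = 0.11). Olfr635 at 143 kb (-1.05, adjusted p = 0.0207), Olfr639 at 178 kb and Olfr613 at 257 kb (-1.08, adjusted p = 0.0427) fell. Olfr648 at 350 kb was below the filter, with 0.0825 ± 0.0369 CPM with PM2.5 and 0.0721 ± 0.0222 CPM with PBS. Among the 92 genes with a RefSeq start site, the start of the counted transcript lay within 100 bases of it in 10, and the median distance was 2982 bases.

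The signalling partners that mark olfactory neurons were scarcely counted. Of 10 olfactory sensory neuron markers, Cnga2, Cnga4, Rtp1 and Rtp2 had no count and 3 more had under 40. Omp, the olfactory marker protein, had 30 counts in all. Adcy3 (0.329 CPM with PM2.5 and 0.280 CPM with PBS), Gnal (0.473 and 0.659 CPM) and Ano2, a calcium-gated chloride channel (0.0963 and 0.114 CPM), were tested and did not pass. The 10 markers summed to 0.796 to 1.08 CPM in PM2.5 libraries and 0.972 to 1.28 CPM in PBS libraries. Of the vomeronasal markers, Gng8 had no count. Gnao1 had 0, 17.01, 12 and 3 counts in PM2.5 libraries 9, 17, 18 and 21, and 5.01, 2, 0 and 0 in PBS libraries 4, 10, 12 and 16, so most of its counts lay in the libraries with Camk2a. Trpc2 had 0, 5, 4.86 and 0 counts in these PM2.5 libraries and 9.12, 12.82, 9 and 7.84 in the PBS libraries.

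Of 36 genes of receptor signalling, trafficking and receptor choice, 6 had no count, 18 were tested, 2 fell and none rose, with a median of 0.16, against 0.04 over all genes tested. Ebf1, a transcription factor of both olfactory neurons and B cells, was at 2.64, 2.14, 2.26 and 2.97 CPM with PM2.5 and at 5.78, 6.89, 4.2 and 4.95 CPM with PBS (log2 fold change -1.12, SE 0.177, adjusted p = 0.0068). The other, Eif2ak3, encodes PERK, an endoplasmic reticulum stress kinase whose signalling stabilises receptor choice in olfactory neurons. It averaged 2.45 CPM with PM2.5 and 5.94 CPM with PBS (-1.27, SE 0.229, adjusted p = 0.0118). The receptor choice regulators Lhx2, Emx2, Ebf2, Ebf3 and Ebf4 had 8 counts or fewer each, and the chromatin genes Ldb1 (-0.35), Kdm1a (-0.07), Cbx5 (0.17) and Lbr (0.23) did not pass. Rtp4, a receptor transport protein gene also induced by interferon, was at 0.444 CPM with PM2.5 and 0.193 CPM with PBS (1.21, SE 0.355, adjusted p = 0.0965).

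The other chemosensory receptor families differed in how often they were counted. All 16 trace amine receptor (Taar) genes were listed at 0, and none of 3 Tas1r and 40 Tas2r taste receptor genes reached 40 counts. Of the formyl peptide receptors, chemoattractant receptors of leukocytes of which some serve in the vomeronasal organ, 2 of 8 reached it (Fpr1 and Fpr2) and neither passed the test. Of 19 Ms4a genes, which include the B cell marker Ms4a1 and genes expressed in a subset of olfactory neurons, 8 reached 40 counts, 7 were tested, 1 rose and none fell.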

How the data were processed

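Total RNA of 8 buffy coat libraries, 4 with PM2.5 and 4 with PBS, was sequenced. The expected counts are estimated counts per Ensembl transcript, deposited by the authors without normalization, per the file headers. The FPKM values deposited beside them were scaled by the authors for transcript length and sequencing depth, per the file headers. The submitters' processing notes list the build GRCm38 and the tools HISAT2 2.0.1, cutadapt 1.9.1 and bcl2fastq 2.17.1.14. The counting tool, its use of strand and its handling of reads that match several genes were not given in the sources used here. Of nonzero values, 83.5% were not whole (tolerance 0.001) on transcripts of the 106 receptor genes and 76.1% on all transcripts.

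Identifiers of 116710 of 118783 transcripts occurred in GENCODE M21 (with deposited lengths equal for every transcript of the 106 genes), and the 2073 without a match were left out. Counts were summed to 35944 genes, rounded and tested (R 4.3.3, edgeR 4.0.16, two-sided quasi-likelihood test, filterByExpr with minimum count 10 and total 15, TMM, Benjamini-Hochberg over 10361 genes, threshold 0.05). SEs are approximate: the absolute log2 fold change divided by the root of its F statistic. CPM are of TMM-scaled libraries, haemoglobin included. Every pair of libraries differed by more than counting noise (lowest chi-square per degree of freedom 16.3). Shared 30-base words were counted on both strands over all annotated transcripts.

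The 106 genes and all lists were chosen with earlier results of these data known. Named genes are those past the threshold, the 10 most counted, the 5 highest and 5 lowest fold changes, the 10 most counted vomeronasal receptors, 3 on each side of the minimum of 40 counts, those within 500 kb of the beta-globin genes, and the neuronal markers and called signalling genes. Genes named for their isoforms (Olfr56) or as other families' members were chosen after their values were seen. Alternatives covered scaling, filters, DESeq2 1.42.0, limma 3.58.1 with pseudocounts of 1 and 0.1, a haemoglobin covariate, transcripts in place of genes, and each library left out. Chosen after seeing the data were the removal of PM2.5 libraries 17 and 18, or 9 and 21, and a stricter reading of Olfr names, without suffixes such as -ps1 or b.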

Additional observations from a re-analysis of the deposited data

Results flagged for a closer look

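In 5 of 72 groups of 4 libraries checked among the named receptor genes, a single library stood far from the other 3 by Dixon's test, which flags about 1 group in 20 by chance. Vmn1r229 was at 1.70 CPM in PM2.5 replicate 21, where the other PM2.5 libraries were at 1.15 to 1.19 CPM. Vmn1r81 was at 0.618 CPM in the same library, with the others at 0.348 to 0.389 CPM. Vmn1r-ps144 was at 2.33 CPM in PM2.5 replicate 18, with the others at 1.83 to 1.91 CPM. Olfr1220 was at 0.185 CPM in PM2.5 replicate 18 and listed at 0 in the other 3, and its total over 8 libraries was 40.7 counts. Vmn2r60 was at 0.22 CPM in PBS replicate 4, with the other PBS libraries at 0.103 to 0.122 CPM.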

How the results depend on the processing

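The count of receptor genes called lower, 17 with TMM and the filter, was 34 with library totals (4.58% of all genes lower), 26 with no filter (1.72%), 1 with the haemoglobin share as a covariate (3 of 10361 genes), 1 without PM2.5 libraries 17 and 18 (3 of 11137) and 7 without PM2.5 libraries 9 and 21 (0.735%). All 17 were among the calls with library totals and with no filter. They were also among those with median-ratio scaling (18, with 1.21% of all genes lower), haemoglobin removed (18, 1.41%) and DESeq2 (22, 2.53%). Of the 17, 11 were among the 12 at 1 CPM or more in 4 libraries (3.57% of 5384 genes lower). limma called 0 genes of any kind, lower or higher, on log2(FPKM + 1) and on log2(FPKM + 0.1), with 2100 and 2126 genes, and 43 receptor genes lower in each, at an unadjusted p under 0.05. On these scales the receptor genes' median was -0.09 and -0.55, beside -0.15 and -0.39 for all genes. Over 19836 transcripts edgeR called 0, with 2054 at an unadjusted p under 0.05. The count with 1 library left out was 5 to 16 lower and 0 to 2 higher. Higher calls, 1 with all libraries, were 2 with no filter and 0 at 1 CPM or more in 4 libraries, with the covariate, and without PM2.5 libraries 17 and 18. The summed level's log2 ratio of PM2.5 over PBS, -0.70, was -1.29 with library totals and -1.05 with totals without haemoglobin. The sign changed for Olfr715b (-0.16 with library totals, -0.0891 and -0.14 with limma at pseudocounts of 1 and 0.1), Vmn2r108 (-0.0322, -0.00091 and -0.0199 in the same order), Olfr1372-ps1 (-0.0549 with library totals) and Olfr629 (0.21 with the covariate, 0.32 without PM2.5 libraries 17 and 18, and -0.73 to 0.0031 with 1 library left out). None of these 4 had a call. Of 620 comparisons of a named gene with its main value, 437 kept direction and call, 151 lost the call, 22 gained one and 10 changed sign. The cause was not tested. The number of genes was 128 at a minimum of 20 counts, 76 at 80 and 101 with strict Olfr names. No paired analysis was possible because the groups share no replicate numbers. Depth limits genes near 40 counts, where a count of 0 in a library allows up to 3 counts.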
